A study of Mus musculus with 7 samples.

Results

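The gate effect described here is the difference between gated and other GFP-positive cells of the mouse embryo, averaged over embryonic days E9.5 and E11.5. It rests on 4 of the 7 arrays of the series, chosen by their titles: 2 arrays of gated cells and 2 of other GFP-positive cells, paired by stage. All cells came from C57BL6J embryos with an Osr1-GFP knock-in, so that the green fluorescent protein, GFP, labels Osr1-expressing cells. Gated cells were sorted as GFP-positive, positive for the integrin Itga8 and negative for the receptor Pdgfra, and the other cells were the GFP-positive cells outside that gate. The E9.5 pair was taken from the caudal part of the embryo, the E11.5 pair from the metanephric mesenchyme. The cells outside the gate are defined only by exclusion, so they can hold several cell types, and they differ in tissue between the stages. Each population had 1 array, so the 2 stages serve as the replicates of the gate, and the spread between them holds stage, embryos, sort and array together.

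Osr1 is a transcription factor of intermediate and lateral plate mesoderm. Its descendants in the metanephric mesenchyme split into nephron progenitors, which condense around the ureteric bud and carry Six2, and stromal progenitors, which become interstitial cells and pericytes. Itga8 pairs with another integrin chain on nephron progenitors and binds nephronectin (Npnt) on the bud, while Pdgfra is a growth factor receptor of mesenchymal cells. The series holds gated cells beside the remaining GFP-positive cells at both stages, so that they can be compared.

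A level is the log2 processed signal scaled to the 75th percentile of the same array, and differences are gated minus other GFP-positive cells. Of 24760 named genes, 20042 were well above background on at least 2 of the 4 arrays and were tested. "Dim" marks a level that was not well above background, and "at least" a difference in which the dim array was set no lower than the lowest well-above level of that array. These lowest levels were -4.61 and -5.12 on the E9.5 and E11.5 gated arrays, and -4.62 and -5.04 on the E9.5 and E11.5 arrays of other GFP-positive cells. Of the spots, 72.4% and 72.7% were well above background on the gated arrays of E9.5 and E11.5, against 84.1% and 74.0% on the arrays of the other cells, so the other GFP-positive cells of E9.5 had the most probes above background. The E11.5 pair lay on 1 slide, but at E9.5 the gated array was on another slide than its partner, and slide and gate cannot be told apart there. In these bulk samples fewer cells of a type and less RNA per cell cannot be told apart.

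The genes of the sort stood as the gate sets them, and give no independent evidence. Osr1 was at levels of 1.03 and 1.63 in gated cells of E9.5 and E11.5, against -0.08 and -1.80 in other GFP-positive cells. Itga8 was at 2.15 and 2.82 in gated cells, against 0.20 and -1.31 in the others. Pdgfra was at -0.52 in gated cells of E9.5 and dim at -5.92 in gated cells of E11.5, against 3.44 and 4.04 in the others. For each of the 3 genes the difference was larger at E11.5.

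Across all tested genes, few differences were shared by the stages. In the limma fit with stage as a term, 0 genes passed an adjusted p under 0.05 as higher in the gate (0.0% of those tested) and 0 as lower (0.0%), and the smallest adjusted p was 0.274. At an unadjusted p under 0.05 there were 1236 genes (6.17%). The fit has 1 residual degree of freedom, the difference between the stages, and an exact sign-flip test over 2 pairs cannot go below p = 0.5. The number of calls depended on the processing. With the normexp background correction 114 genes were called higher and 112 lower, with an intensity trend in the variance 18 and 18, and among genes above background on all 4 arrays 11 and 5. The 24 genes named below were all among the calls of the normexp setting. These genes were chosen by their differences on the same 4 arrays, so this gives no independent evidence. In what follows, counts are of genes at least 2-fold apart, and none of them is a call of the limma fit.

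At least 2-fold higher in the gate at both stages were 270 genes (1.35% of those tested), and lower at both were 380 (1.9%). Genes on opposite sides numbered 158 with the gate higher at E9.5 but lower at E11.5 (0.788%) and 267 of the reverse kind (1.33%). So 650 genes lay on 1 side at both stages and 425 on opposite sides. The single stages had more: 1003 genes were higher at E9.5 (5.0%) and 1573 lower (7.85%), while 2041 were higher at E11.5 (10.2%) and 1775 lower (8.86%). The 270 shared genes were 26.9% of those higher at E9.5 and 13.2% of those higher at E11.5. The 380 shared genes were 24.2% of those lower at E9.5 and 21.4% of those lower at E11.5. Genes above background on all 4 arrays gave 176 higher and 176 lower at both stages, so the excess on the lower side was among genes with a dim array. The split of the genes on opposite sides turned with the scaling: those higher at E9.5 were 37.2% of them as processed here, 59.6% with quantile normalization and 55.2% without scaling. Genes higher at both stages were 41.5% of the 650, 44.5% with quantile normalization and 35.2% without scaling, but 54.6% with normexp, where the higher side was the larger (112 against 93). The median difference over all tested genes was -0.11 at E9.5 and 0.16 at E11.5, against -0.02 and 0.05 with quantile normalization.

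Agreement in direction was higher among genes with larger differences. Over the 19544 genes with a difference at both stages, the Pearson correlation across genes was 0.141 and the Spearman correlation 0.0037, a description only, since genes are not independent replicates. The same direction at both stages was found for 45.4% of all tested genes by measured differences, dim arrays included, and for 48.3% under quantile normalization. The stage medians lay on opposite sides of 0 (-0.11 and 0.16), and this share was not computed for each direction. It is thus not a like baseline for the shares that follow, in which dim arrays were set no lower than their lowest well-above level. Of the 962 genes at least 2-fold higher at E9.5 with a value at E11.5, 57.1% were also higher at E11.5, and from 4-fold on this held for 71.9% of 160. Among genes higher at E11.5, 45.2% of 2029 at 2-fold, 62.8% of 409 at 4-fold and 72.0% of 132 at 8-fold were also higher at E9.5. On the lower side, 49.9% of 1534 genes 2-fold lower at E9.5 and 68.5% of 216 that were 4-fold lower were also lower at E11.5. Starting from E11.5, 62.1% of 1767, 68.0% of 613 and 73.1% of 256 genes were lower at E9.5 as well. Under quantile normalization the 4-fold shares were 59.1% and 67.9% starting from E9.5 (higher and lower) and 71.2% and 64.1% starting from E11.5. At 4-fold at both stages there remained 54 genes higher and 58 lower, and at 8-fold 15 and 14. Agreement did not grow further on the lower side from E9.5, where 64.7% of 51 genes that were 8-fold lower had the same direction at E11.5 (68.5% at 4-fold).

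**Figure D1:**
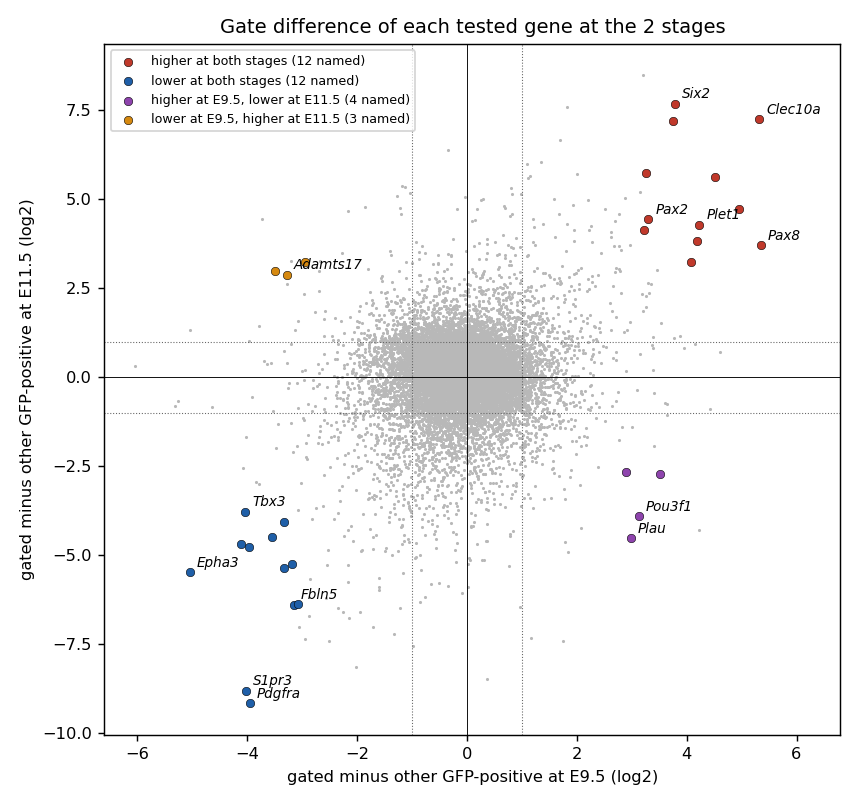
Difference between gated and other GFP-positive cells (log2) at E9.5 on the x axis and E11.5 on the y axis, 1 grey point per tested gene with a value at both stages, dotted lines at 2-fold, and the genes named by rule in colour. Over all grey points the rank correlation is 0.0037 (Spearman) and the linear one 0.141 (Pearson), and the far corners hold genes such as Six2 (3.79 and 7.68) and Epha3 (-5.04 and -5.47).

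**Figure D2:**
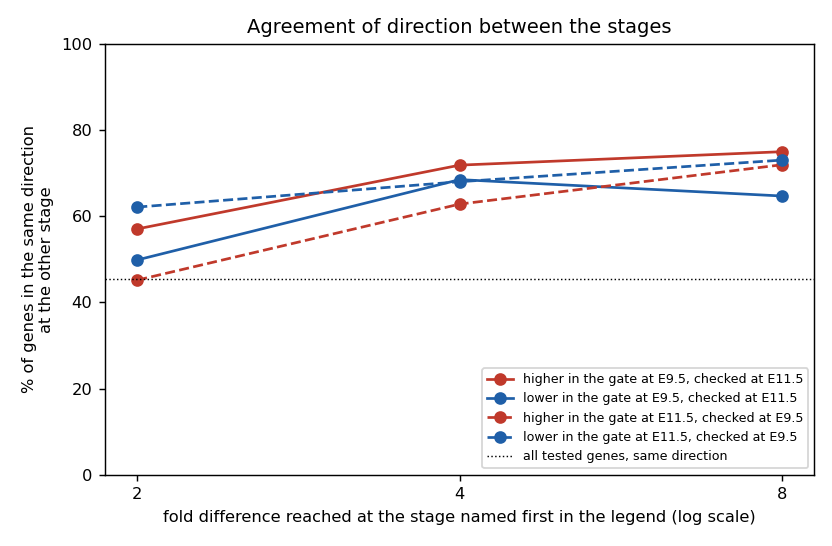
Share of genes (y axis, %) that lay on the same side at the other stage, for genes at least 2-fold, 4-fold and 8-fold apart at the stage named first (x axis, log scale), with the share over all tested genes as a dotted line at 45.4%. The dotted line counts measured differences in either direction, dim arrays included, so it is not a like baseline for the 4 lines. From 2-fold to 4-fold each of the 4 lines goes up, for genes higher at E9.5 to 71.9%.

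Of the shared genes, more were further apart at the later stage. Among the 270 higher at both, the median difference was 1.58 at E9.5 and 1.83 at E11.5, and 185 were further apart at E11.5. Among the 380 lower at both it was -1.47 and -2.12, and 267 were further apart at E11.5. The group on the low side was dim at both stages for 35 of the 270 and 96 of the 380. These values describe genes chosen by the same differences.

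The 12 genes with the largest shared difference on the higher side include regulators and signals of the early kidney. Six2, which keeps nephron progenitors undifferentiated, was at levels of 1.16 and 4.10 in gated cells of E9.5 and E11.5, against -2.63 and -3.58 in other GFP-positive cells, a mean difference of 5.74 ± 0.96 (SE of the limma fit, 2 stages). Pax2, a paired box factor needed for kidney formation, was at 2.32 and 3.28 in gated cells against -0.97 and -1.16 in the others (3.87 ± 0.47). Its 3 probes had mean differences between 1.48 and 3.87. Pax8, which acts together with Pax2, was at 0.72 and -1.32 in gated cells and dim in the others at -6.70 and -7.06, so that the mean difference was at least 4.53. Pax8 was thus lower in the later gate than in the earlier one, whereas Six2 and Pax2 were higher in the later gate. The ligand Fgf20, which maintains nephron progenitors, was at 0.06 and 0.69 in gated cells against -3.19 and a dim -5.98 in the others. Heyl, a transcriptional repressor induced by Notch, was at -0.43 and -1.21 in gated cells and dim in the others at -5.26 and -5.39. The groups did not overlap for any of these genes, which were chosen for large differences at both stages. How many of all tested genes lacked overlap was not counted. In the mm9 coordinates of the array, the Six2 probe lies on chromosome 17 from 86083634 to 86083693 and the Fgf20 probe on chromosome 8 from 41365079 to 41365138.

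Several genes of this group are not part of textbook lists of nephron progenitors. Clec10a, a C-type lectin known from macrophages and dendritic cells, had the largest difference by the smaller of its stage values, with 1.78 and 2.21 in gated cells against -3.54 and a dim -5.12 in the others, a mean difference of at least 6.29. Of 10 tested macrophage markers, 0 were 2-fold higher in the gate at both stages and 1 was lower, Tyrobp, beside 1.35% and 1.9% of all tested genes. The summed signal of the list (in units of the 75th percentile) was 17.96 and 14.48 in gated cells against 16.67 and 15.74 in the others. A part of macrophages in the Clec10a signal was not tested. Matn1, a matrilin of cartilage matrix, was at 0.32 and -0.30 in gated cells and dim in the others at -5.01 and -6.24. Plet1, a surface protein of epithelial progenitors, was at 2.65 and 1.26 in gated cells against -1.58 and -3.03 in the others, with nearly the same difference at each stage (4.23 and 4.29). Padi2, which converts arginine to citrulline in proteins, was at 0.98 and 2.78 in gated cells against -2.78 and -4.43 in the others. The muscle actinin Actn3 was at -0.54 and 0.44 in gated cells against a dim -4.79 and -2.79 in the others, and the secreted protein Nell1 at -0.72 and 1.37 against -3.95 and -2.77. Klhl14, of the kelch-like family, was at 1.25 and 0.57 in gated cells against -3.25 and a dim -5.37 in the others. Over the 12 genes, adjusted p ran between 0.274 and 0.383 by limma, and 8 differed more at E11.5, the stage with the wider differences in general.

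On the lower side, the 12 named genes hold receptors, matrix proteins and transcription factors of mesenchyme, with Pdgfra from the sort among them. Epha3, an ephrin receptor, was at -3.94 and a dim -5.78 in gated cells of E9.5 and E11.5, against 1.11 and 0.35 in other GFP-positive cells, a mean difference of -5.26 with the dim array at its lowest well-above level. S1pr3, a receptor for sphingosine 1-phosphate, was at 0.352 and -3.803 in gated cells against 4.381 and 4.999 in the others (-6.42 ± 1.15). Ddr2, a receptor for fibrillar collagen, was at -2.10 and a dim -6.32 in gated cells against 0.98 and 1.24 in the others. Its 2 probes had mean differences of -5.32 and -2.96. For S1pr3 and Ddr2 the gated level was lower at E11.5 than at E9.5, while the others stood at like levels. Gfra3, the receptor subunit for artemin, was at -3.31 and -2.10 in gated cells against 0.24 and 2.39 in the others.

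Matrix proteins and transcriptional regulators followed. Pcolce, which enhances the processing of procollagen, was at -1.44 and -1.69 in gated cells against 2.67 and 3.01 in the others (-4.40 ± 0.41), and the elastic fibre protein Fbln5 was dim in gated cells at -6.14 and -5.82, against -1.46 and 1.27. The 2 probes of Fbln5 had mean differences of -5.89 and -0.35, and 1 of them was well above background on at least 2 of the 4 arrays. Among transcriptional regulators, Tbx3, a T-box repressor, was at -1.74 and a dim -4.25 in gated cells against 2.30 and -0.47 in the others. The retinoic acid receptor Rarg was dim in gated cells at -3.95 and -6.56, against 0.01 and -0.35 in the others. In all 4 of these genes, which were chosen for such differences, both gated arrays lay below both arrays of other GFP-positive cells. How many of all tested genes did so was not counted. The corepressor Runx1t1 was dim in gated cells at -6.27 and -6.57, against -1.29 and 0.23, and the forkhead factor Foxp2 was at a dim -4.62 and -4.38, against -1.43 and 0.86. The 2 probes of Foxp2 had mean differences of -4.22 and -2.17. The transcript 1010001N08Rik was dim in gated cells at -6.34 and -6.70, against -1.28 and -1.07 in the others. Adjusted p over the 12 genes ran between 0.274 and 0.431 by limma, and 11 differed more at E11.5, the stage with the wider differences in general.

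**Figure D3:**
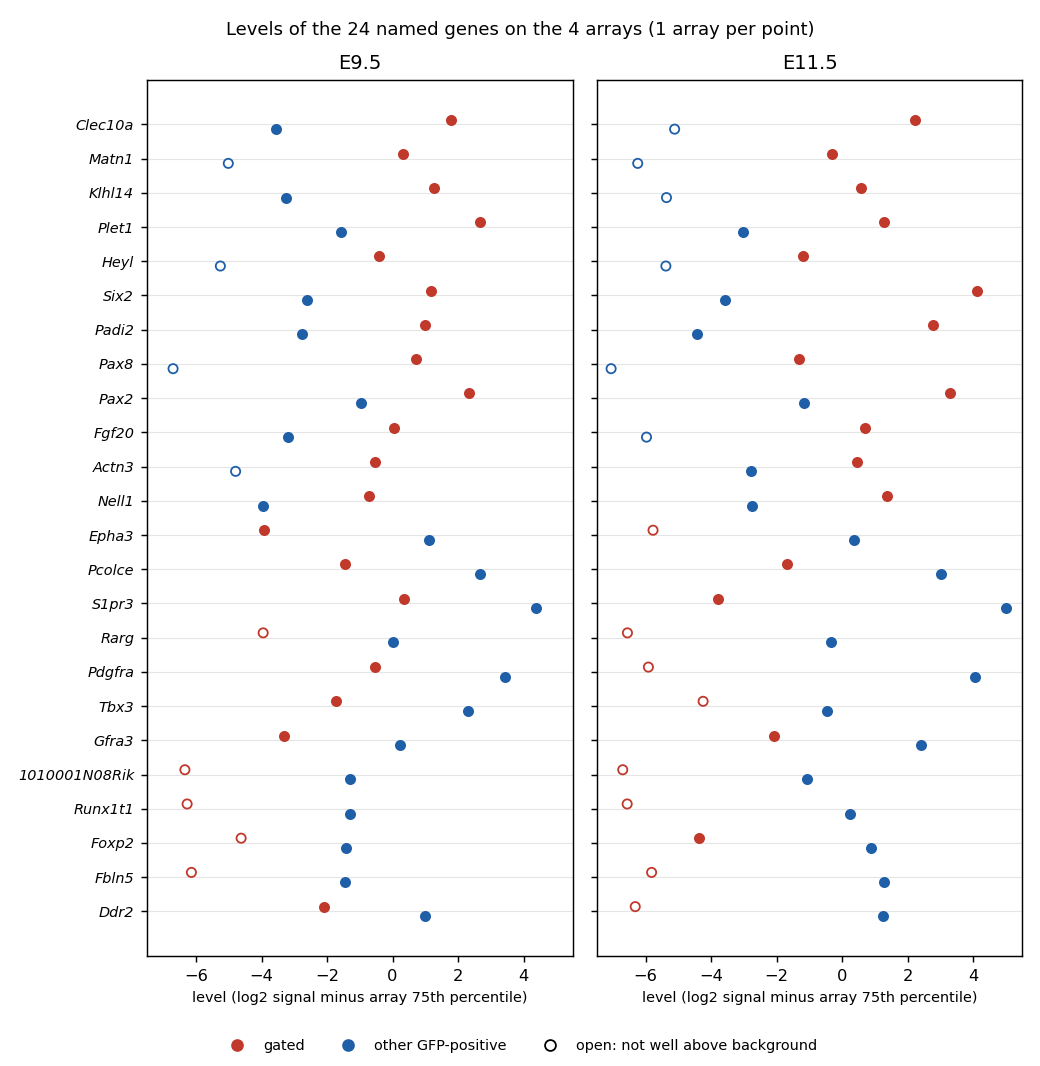
Level of each of the 24 named genes (rows) at E9.5 (left panel) and E11.5 (right panel), with 1 array per point, gated cells in red and other GFP-positive cells in blue, and open points for levels not well above background. In the upper 12 rows the red point lies right of the blue one at both stages, in the lower 12 rows left of it, and Six2 has its widest gap at E11.5 (4.10 against -3.58).

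The promoters of the leading genes of each side that have an entry on chromosomes other than 18 are shown to give the sequence context of genes that lay on 1 side at both stages. They are 300 bases around the start of transcription, most of them before it, from RefSeq on GRCm38.p6, 5′ to 3′ on the strand of the gene: Matn1 at chr4:130944135-130944434 on the plus strand, Plet1 at chr9:50494275-50494574 on the plus strand, Epha3 at chr16:63864126-63864425 on the minus strand and Pcolce at chr5:137611355-137611654 on the minus strand. Capitals mark matches on either strand to TATAAA (the TATA box), to CCAAT (the box bound by nuclear factor Y), to GGGCGG (a GC box), to CANNTG (the E-box), to TTTATGG (a site of posterior Hox proteins) or to TCANGTTTC (a site of proteins such as Six2), and overlapping matches run together.
Matn1: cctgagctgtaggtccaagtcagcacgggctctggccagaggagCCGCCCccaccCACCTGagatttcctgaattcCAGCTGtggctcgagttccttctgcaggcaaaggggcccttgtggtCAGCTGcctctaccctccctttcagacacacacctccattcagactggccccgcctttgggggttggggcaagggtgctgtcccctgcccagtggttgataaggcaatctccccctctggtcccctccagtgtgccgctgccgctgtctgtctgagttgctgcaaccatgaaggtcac
Plet1: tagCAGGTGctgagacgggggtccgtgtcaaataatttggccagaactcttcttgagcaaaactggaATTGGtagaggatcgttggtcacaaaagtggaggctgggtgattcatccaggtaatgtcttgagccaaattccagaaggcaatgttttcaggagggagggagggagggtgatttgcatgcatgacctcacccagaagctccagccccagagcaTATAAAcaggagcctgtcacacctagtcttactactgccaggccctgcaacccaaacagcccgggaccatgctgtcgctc
Epha3: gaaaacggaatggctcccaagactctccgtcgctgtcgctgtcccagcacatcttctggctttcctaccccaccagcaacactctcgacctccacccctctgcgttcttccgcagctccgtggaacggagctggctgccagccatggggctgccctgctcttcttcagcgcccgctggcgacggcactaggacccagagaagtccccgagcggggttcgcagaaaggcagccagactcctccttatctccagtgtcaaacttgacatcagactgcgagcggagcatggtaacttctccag
Pcolce: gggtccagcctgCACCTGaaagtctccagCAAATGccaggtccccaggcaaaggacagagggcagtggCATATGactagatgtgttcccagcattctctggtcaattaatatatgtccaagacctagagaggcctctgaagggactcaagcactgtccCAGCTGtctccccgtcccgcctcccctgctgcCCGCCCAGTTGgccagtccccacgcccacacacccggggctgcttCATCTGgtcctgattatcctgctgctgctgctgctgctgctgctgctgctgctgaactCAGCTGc
Matn1 held 3 matches to CANNTG and 1 to GGGCGG. Plet1 held 1 match to TATAAA, as well as 1 to CCAAT and 1 to CANNTG. Epha3 held none of the 6, and Pcolce held 7 to CANNTG and 1 to GGGCGG. Of 32851 promoters in the table, CANNTG is in 72.3%, CCAAT in 37.4%, GGGCGG in 35.7%, TATAAA in 13.6%, TTTATGG in 2.75% and TCANGTTTC in 1.08%. Promoters were found for 7 of the 12 named genes on each side: CANNTG stood in 4 of 7 on the higher and 6 of 7 on the lower side, CCAAT in 5 and 1, GGGCGG in 5 and 4, TATAAA in 1 and 1, and the motifs TTTATGG and TCANGTTTC in 0 and 0. A match is a description of the letters and says nothing of binding.

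The arrays outside the comparison placed the named genes in other cells. At E9.5 the GFP-negative cells were hybridised on the same slide as the gated cells. The named genes were chosen with the level of that gated array, so its values beside GFP-negative cells are a description and no second test. Six2 was at 1.16 in gated and -2.75 in GFP-negative cells of E9.5, and Plet1 at 2.65 in gated and -2.74 in GFP-negative cells. Heyl stood at like levels, with -0.43 in gated and -0.55 in GFP-negative cells. On the lower side, S1pr3 was at 0.35 in gated and 4.18 in GFP-negative cells, and Epha3 at -3.94 in gated and 0.02 in GFP-negative cells. At E8.5, Six2 was at -3.97 in GFP-positive cells and dim at -4.85 in GFP-negative cells, and Plet1 was at -0.22 in GFP-positive and -0.71 in GFP-negative cells.

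Gene lists were read by the number of tested members 2-fold apart at both stages, beside the 1.35% and 1.9% of all genes, and by the median of the mean difference, which was 0.03 over all genes. The lists were chosen with earlier results of these data known, and 0 of their members passed the limma test. Transcription factors of nephron progenitors had 6 of 22 tested members higher at both stages and 0 lower (median 0.38): Osr1, Pax2, Pax8, Six2, the zinc finger factor Sall1 and the homeobox gene Meox1. Sall1 was at 3.25 and 3.57 in gated cells against 1.59 and 1.60 in the others. Wt1, a zinc finger factor of progenitors and podocytes, was at 5.73 and 5.90 in gated cells against 3.83 and 4.99, so that its difference was 1.90 at E9.5 and 0.91 at E11.5. Some members of this list lay on opposite sides at the stages. Emx2, a homeobox factor of the urogenital system, was at -1.45 and a dim -5.35 in gated cells against -2.58 and -3.37 in the others. The other way round, Cited1, a co-regulator of uncommitted progenitors, was at 3.18 and 4.72 in gated cells against 4.45 and -0.38 in the others. Eya1, a coactivator that partners Six2, had 1 probe, which stood between 8.80 and 9.01 on all 4 arrays.

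Ligands, receptors and surface genes of nephron progenitors had the largest positive median of the lists beside that of the sort genes, 1.73, with 11 of 23 tested members higher at both stages, Itga8 from the sort among them, and 0 lower. Gdnf, the ligand that draws out the ureteric bud, was at -0.59 and 0.01 in gated cells against -3.85 and -2.28 in the others. Its binding receptor Gfra1 was at -0.77 and 0.17 in gated cells against -3.92 and a dim -5.68. The ligand Fgf9 was at 1.42 and -0.06 in gated cells against -0.79 and a dim -6.71. The thyroid hormone binding protein Crym, with 2.84 and 3.44 in gated cells against -0.37 and a dim -6.70, had a difference of 3.20 at E9.5 and at least 8.48 at E11.5. The chemokine receptor Cxcr4 was at 2.70 and 4.19 in gated cells against 0.88 and -3.41, and the Wnt enhancer Rspo1 at 3.15 and 4.83 against 2.05 and -1.18. In Cxcr4 and Rspo1 the gap at E11.5 came with a lower level in the other GFP-positive cells of that stage. The endocytic receptor Lrp2, the adhesion molecule Ncam1 and the Slit receptor Robo2 completed the 11 together with Fgf20. The 2 probes of Lrp2 had mean differences of 4.19 and -0.44, and 1 of them was well above background on at least 2 of the 4 arrays. The list median was 0.54 at E9.5 and 3.51 at E11.5. With normexp these medians were 0.46 and 1.97, and 0.21 and 2.13 among genes above background on all 4 arrays. Members such as Bmp7 (differences of -0.19 and 4.73) and Spock2 (0.14 and 4.42) were apart at E11.5 alone. Npnt and Rspo3 were on opposite sides, Npnt with -0.97 and -0.45 in gated cells against 0.22 and a dim -5.11 in the others.

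Signalling targets were less uniform. In the Notch list 4 of 14 tested members were higher at both stages and 0 lower (median 0.46, and 0.30 among genes above background on all 4 arrays). These were the target genes Heyl, Hey1 and Nrarp and the glycosyltransferase Lfng, which modifies Notch receptors. Hey1 was at 5.33 and 3.98 in gated cells against 3.86 and 2.65 in the others. The receptor Notch1 itself had differences of 1.46 and -0.97. Of 12 targets of fibroblast growth factor signalling, 1 was higher at both stages and 0 lower, the phosphatase Dusp4 (-0.79 and -1.29 in gated cells against -2.28 and -4.17), and the median was 0.70. Etv4, a transcription factor downstream of the pathway, just missed 2-fold at E9.5 (0.97 and 2.64). Canonical Wnt targets had 0 of 10 higher at both stages and 1 lower, the Wnt inhibitor Dkk1 (median -0.24), and targets of Bmp and Tgf-beta had 0 and 0 of 12 (median -0.21). Hedgehog genes had 0 of 10 higher and 1 lower, the transcription factor Gli1, at 0.31 and -1.43 in gated cells against 1.45 and 1.99 in the others (median -0.30). The 2 probes of Gli1 had mean differences of -2.29 and -0.33, and the values given are those of the first.

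Retinoic acid genes had 0 of 14 higher at both stages and 3 lower (median -0.38): the receptors Rarb and Rarg and the binding protein Crabp1. Crabp1 was at 1.35 and -0.67 in gated cells against 3.69 and 3.14 in the others. Rarb was at 0.91 and 1.26 in gated cells against 2.41 and 3.11. Its 3 probes had mean differences between -1.68 and -0.12, and the levels are those of the probe furthest apart. The receptor Rara had differences of -0.23 and -0.05. Rdh10, which makes retinaldehyde, was on the higher side with differences of 2.212 and 0.997, the second just below the 2-fold line.

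Genes of stroma and mesenchyme made up the lists with the most negative medians of the mean difference. Their medians at E9.5 and E11.5 were -0.81 and -2.18 for transcription factors, -0.39 and -2.97 for receptors and signals, and -0.82 and -2.42 for interstitial matrix. At E9.5 alone more negative medians were those of lateral plate, limb and heart factors (-1.98), Hox groups 11 to 13 (-1.38) and red cell markers (-1.26). Among transcription factors of stroma, 0 of 20 tested members were higher at both stages and 7 were lower (median -1.89): Tbx18, Twist1, Twist2, Prrx1, Prrx2, Ebf1 and Snai1. Twist1, a basic helix-loop-helix factor of mesenchyme, was at -0.10 and a dim -4.86 in gated cells against 2.96 and 2.15 in the others. Tbx18, a T-box factor of ureteric mesenchyme, was at -2.65 and a dim -6.64 in gated cells against -0.15 and 2.29. The 2 stages differed in how much of the list was involved, with 9 members lower at E9.5 and 15 at E11.5, a difference that was not tested. Foxd1, which marks renal stromal progenitors, was at 2.67 and 1.69 in gated cells against 1.89 and 6.14 in the others, so its difference was 0.78 at E9.5 and -4.45 at E11.5. Nfia and Nfib, factors of the nuclear factor I family, had differences of 0.03 and 0.78 at E9.5 and of -5.90 and -4.41 at E11.5. Tbx15 was on opposite sides, with differences of -5.04 and at least 1.34.

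Receptors and signals of stroma had 0 of 16 members higher at both stages and 6 lower (median -1.74): Pdgfra, Pdgfrb, Vcam1, Epha3, Epha7 and S1pr3. The pericyte receptor Pdgfrb was at 0.94 and -1.22 in gated cells against 2.65 and 3.25 in the others, and the adhesion molecule Vcam1 at -2.13 and a dim -5.22 against 0.82 and 2.22. Rgs5, a pericyte gene, was on opposite sides, at 0.84 and -3.40 in gated cells against -0.92 and 4.01 in the others. Interstitial matrix genes had 0 of 18 higher and 7 lower (median -1.62): Col1a1, Col1a2, Col3a1 and Col5a2, which form fibrillar collagens, and Fbn1, Eln and Bgn. Col1a1 was at 0.18 and -1.94 in gated cells against 2.43 and 4.66 in the others, and Col3a1 at 1.654 and -1.005 against 3.818 and 4.753. The matrix list had a median of -0.75 with the normexp correction.

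Basement membrane genes had 2 of 14 members higher at both stages, Col4a1 and Frem2, and 0 lower (median 0.58, 0.38 with normexp and 0.26 among genes above background on all 4 arrays). At single stages 3 were higher and 1 lower at E9.5, and 6 were higher and 3 lower at E11.5. Col4a1, a chain of the network collagen of basement membranes, was at 2.52 and 1.94 in gated cells against 1.17 and 0.14 in the others. Frem2, a matrix protein of the Fraser complex, was at 1.60 and 0.89 in gated cells against 0.21 and -1.28. The nidogens, which link laminin to this collagen network, did not share that side: Nid1 had differences of 0.13 and -2.35, and Nid2 of -0.79 and -2.93. Epithelial genes had 1 of 14 higher at both stages, Lrp2 (by 1 of its 2 probes), and 0 lower (median -0.09), and mesenchymal cadherins had 1 of 6 higher, Cdh4, and 0 lower (median 0.25).

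Factors of lateral plate, limb and heart mesoderm had 0 of 14 higher at both stages and 3 lower, Isl1, Gata6 and Pitx1 (median -0.77, and -0.32 among the 6 above background on all 4 arrays). Isl1 was at -0.17 and -4.42 in gated cells against 1.90 and 0.18 in the others. Gata6 was at -1.13 and -3.68 in gated cells against 1.42 and 1.60. In Pitx1, a hindlimb factor, the level was -1.52 and a dim -6.65 in gated cells against 1.64 and -3.01 in the others. Of the Hox genes, groups 9 and 10 had 0 of 7 members on either side at both stages (median 0.32), and groups 11 to 13 had 0 higher and 2 of 7 lower, Hoxa13 and Hoxd13 (median -1.15, and -0.21 with normexp). Hoxd13 was at -1.46 and -2.91 in gated cells against 2.61 and -0.36 in the others. Hoxd11 was at -1.19 and 4.01 in gated cells against 2.08 and 3.60, a difference of -3.27 at E9.5 and 0.40 at E11.5.

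**Figure D4:**
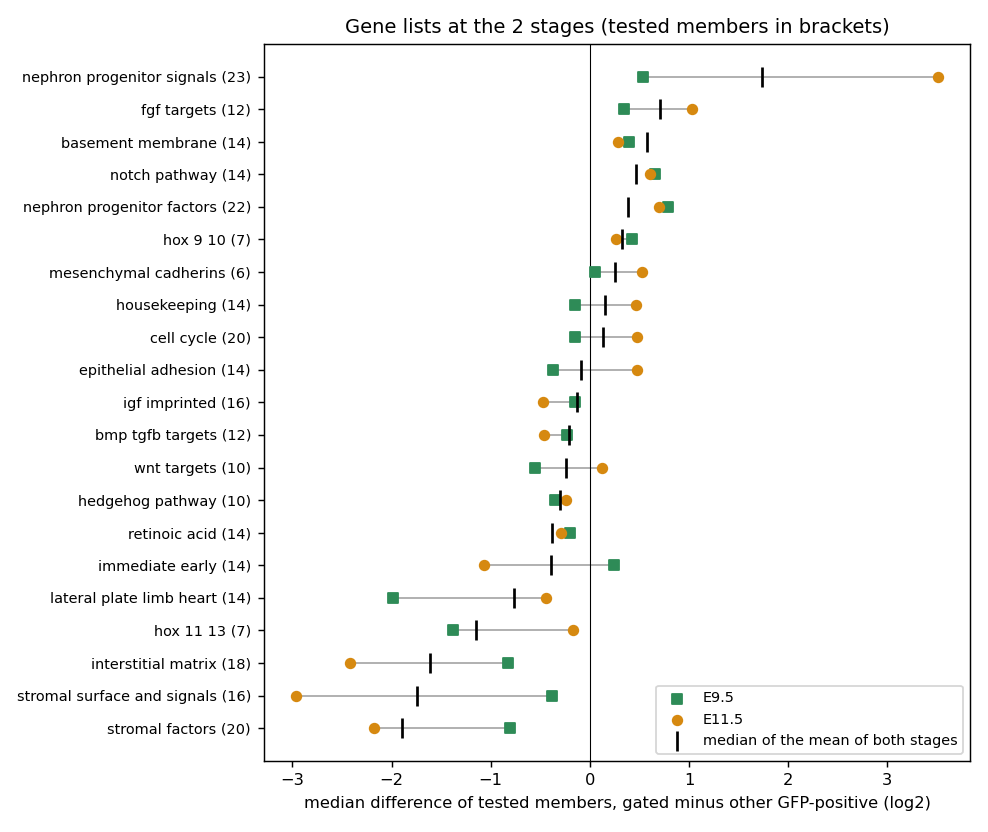
Median difference of the tested members of gene lists (x axis, log2, gated minus other GFP-positive cells), with squares for E9.5, circles for E11.5 and a bar for the median of the mean of both stages. The sort genes and the markers of other cell types are not drawn. The 3 stromal and matrix lists lie left of 0 at both stages (mean medians between -1.89 and -1.62), and the bar of nephron progenitor signals lies furthest right (1.73).

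The cell cycle and housekeeping lists were also read by members within 2-fold at both stages. Of 20 cell cycle genes, 17 were within 2-fold at both stages and 0 were apart at both (median 0.13), as were 11 of 14 housekeeping genes (0 apart at both, median 0.15). That share was not computed for all tested genes, so it does not set these lists apart. At E11.5, 3 cell cycle genes stood 2-fold higher in the gate and 0 lower. The housekeeping list had 2 members on the higher side and 1 on the lower. Among all tested genes 10.2% were higher and 8.86% lower at that stage. At E9.5, 0 members of either list were apart, beside 5.0% of all tested genes higher and 7.85% lower. The medians of both lists changed sign between E9.5 and E11.5, from -0.15 to 0.48 for cell cycle and from -0.15 to 0.46 for housekeeping genes. With quantile normalization these were -0.08 and 0.29, and -0.02 and 0.22. Genes of insulin-like growth factors and imprinting had 0 of 16 apart in 1 direction at both stages (median -0.13), but 1 was higher at E9.5, and 4 were higher and 3 lower at E11.5. Immediate early genes, which dissociation of tissue can induce, had 1 of 14 higher at both stages, Ier3, and 0 lower, but 9 were lower in the gate at E11.5, with Fos at 1.61 in gated and 3.53 in other GFP-positive cells. Their summed signal was 20.5 and 64.5 in gated cells of E9.5 and E11.5, against 22.1 and 186.7 in the others. Its part in the E11.5 differences was not tested.

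Markers of other cell types were counted in the same way. Of 16 endothelial markers 7 were higher in the gate at E9.5 and 1 at both stages, Flt4, and 0 were lower at both (median 0.76, 0.32 with normexp and 0.49 among genes above background on all 4 arrays). Their summed signal was 22.5 and 8.17 in gated cells against 15.5 and 6.39 in the others. At E11.5, 7 of the 16 were dim in gated cells and 9 in the others, with Cdh5, Tek, Tie1 and Flt1 dim in both. Above background on all 4 arrays were 7 of the 16. Of 9 red cell markers 4 were lower at E9.5, of which the globins Hbb-y and Hbb-bh1, used by embryonic red cells, stood at a dim -4.12 and at -3.05 in gated cells against 1.92 and 2.27 in the others. The summed signal was 2.34 and 1.47 in gated cells against 11.8 and 1.51. The part of blood and vessel cells in the E9.5 differences was not tested. Gut endoderm had 5 of 12 markers tested and 0 apart at both stages. The other 7 were well above background on the E9.5 array of other GFP-positive cells alone, which the filter removes, among them Foxa2, at a dim -4.16 and -6.74 in gated cells against 0.91 and a dim -7.02 in the others. The list had summed signals of 3.91 and 1.25 in gated cells against 9.22 and 0.889. Surface ectoderm (9 tested), neural tissue (10), ureteric bud (11) and heart muscle (8) had 0 members apart in 1 direction at both stages. Somite markers had 1 of 8 higher (Meox1) and 1 lower (Tcf15), smooth muscle markers 1 of 9 higher (Des) and 1 lower (Pdgfrb), and markers of nephron epithelium 1 of 11 lower, the actin binding protein Synpo, with 0 higher. The 2 probes of Synpo had mean differences of -4.36 and -0.42.

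Genes on opposite sides at the stages included regulators and secreted proteins. Pou3f1, a POU factor, was at -0.80 and a dim -4.82 in gated cells of E9.5 and E11.5, against -3.93 and -0.92 in other GFP-positive cells. Plau, a secreted plasminogen activator, was at 0.52 and a dim -6.12 in gated cells against -2.46 and -0.61 in the others. Magee1, of the MAGE family, was at 0.79 and -3.73 in gated cells against -2.73 and -1.03. In these 3 genes the gated cells were the higher population at E9.5 alone. The reverse held for the metalloproteinase Adamts17, at -3.51 and 0.44 in gated cells against -0.23 and -2.45 in the others. Trim36, of the tripartite motif family, was at a dim -3.91 and -1.68 in gated cells against -0.96 and a dim -4.91. Over the 7 genes named this way, with Tmem150b and Klhl23, the mean differences with dim arrays at their lowest well-above level were between -0.76 and 0.41 on the log2 scale, while each stage difference was at least 2.67 in size. With 4 arrays the difference between the stages has no test.

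**Figure D5:**
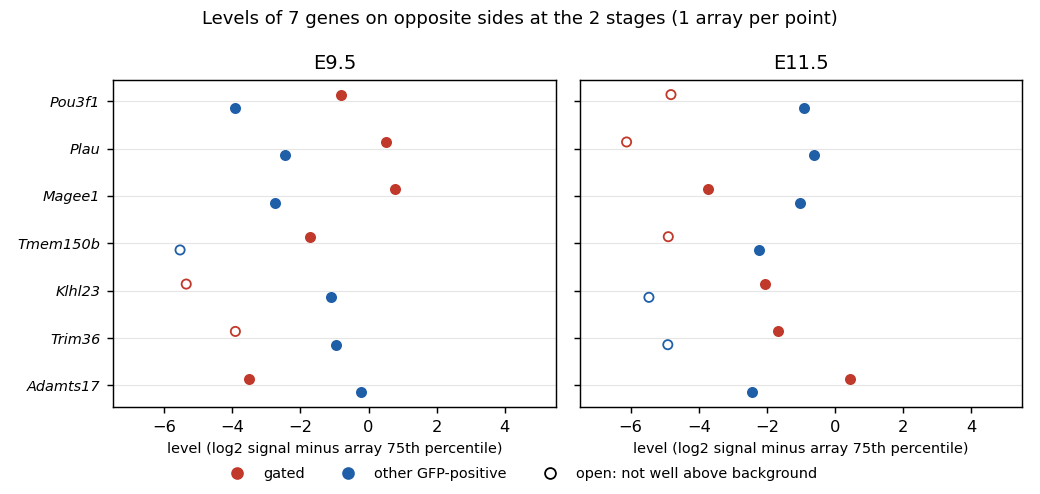
Level of the 7 genes on opposite sides (rows) at E9.5 (left panel) and E11.5 (right panel), 1 array per point, gated cells in red, other GFP-positive cells in blue, open points not well above background. For Plau the gated point is right of the other at E9.5 (0.52 against -2.46) and left of it at E11.5 (dim at -6.12 against -0.61).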

How the data were processed

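The deposited files hold the scanner output of single-colour (Cy3) Agilent arrays. Per the labels, 10 ng of total RNA per population was amplified and labelled. Spot intensity on the linear scale comes from Agilent Feature Extraction 10.7.3.1, which the submitters' processing notes name, and the value table the authors deposited holds this same intensity in all 62976 values of each array. Control spots and 127 to 160 outlier-flagged spots per array were left out, and spots of a probe were averaged, giving 55681 probes. Of these, 26533 were named by RefSeq accession, 6331 by the array files, and 22817 had no gene name. A gene was represented by its brightest probe over all 7 arrays. The log2 signal minus the 75th percentile was fitted with limma 3.58.1 (stage and gate, 4 arrays), with Benjamini-Hochberg adjustment over all genes tested. The 399 probes spotted 10 times varied within an array by 0.13 (median SD, log2). No label says whether a population came from separate pools.

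Named genes are the 12 on each side with the largest smaller stage difference, well above background on the high side, without another probe that goes the opposite way by over 1 log2 unit, and the 5 each way on opposite sides, some of which are not reported here; the 3 sort genes and list members are examples picked with their values known. The 33 lists (415 symbols), the named genes and the comparison itself were chosen with earlier results of these data known. The fit was checked on simulated data. Alternatives were another scaling, background correction, filter, probe rule, variance trend, set of arrays and slide term.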

Additional observations from a re-analysis of the deposited data

Results flagged for a closer look

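The 7 genes on opposite sides were singled out because their arrays moved one way at E9.5 and the other at E11.5, and the difference between the stages was not tested. The gate was higher at E9.5 but lower at E11.5 for Pou3f1 (gated minus other 3.13 at E9.5, -3.90 at E11.5), Plau (2.99 and -4.51), Magee1 (3.52 and -2.71) and Tmem150b (2.90 and -2.67). The reverse held for Klhl23 (-3.50 and 2.99), Trim36 (-2.95 and 3.24) and Adamts17 (-3.28 and 2.88). Differences with a dim array on the low side are bounds. Each value is 1 array against 1 array, and the E9.5 pair lies across slides.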

How the results depend on the processing

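Calls of the limma fit were 0 higher and 0 lower without the stage term, with quantile normalization, without scaling, without a filter on dim probes, with the mean of all probes, with all 7 arrays (with or without slide), with each of the 4 arrays left out of that fit, at an adjusted p under 0.1, and over every probe (chosen after seeing the data). They were 114 and 112 with normexp (110 and 104 of them 2-fold apart at both stages), 18 and 18 with an intensity trend, and 11 and 5 among genes above background on all 4 arrays, where fewer genes were tested (16915). Counts at 2-fold (higher at both, lower at both, higher then lower, lower then higher) were 270, 380, 158 and 267. They were 112, 93, 25 and 22 with normexp, 176, 176, 84 and 90 among genes above background on all 4 arrays, 54, 58, 8 and 12 at 4-fold, and 517, 725, 423 and 625 over every probe. With quantile normalization the genes lower at E9.5 and higher at E11.5 were 154, and without scaling 163. Normexp shared 112 of the 270 and 91 of the 380 genes, quantile normalization 236 and 325. The cause of these moves was not tested. Of the mean differences of the 31 named genes under each alternative, 441 values kept their side, 53 passed the threshold that the main setting misses, 43 moved, all of these in the genes on opposite sides, and 0 called values reversed. Part of this was fixed in advance. Genes on 1 side were chosen for the same direction at both stages, so their single-stage values had to keep it. Dropping the stage term leaves the mean difference unchanged by construction. Leaving out 1 of the 4 arrays leaves the other stage alone, with no test: Six2 then ran between 3.79 and 7.68, and Adamts17 between -3.28 and 2.88. Signal over background limits the dim side, where a difference is only a bound.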
